A study of Mus musculus with 468 samples.

Results

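The comparison described here set the adipose tissue libraries with the lowest mouse numbers against those with the highest. Of all libraries, 95 (20.3%) carried a mouse number of 120 or lower (the numbers run from 21 to 120) and 84 (17.95%) carried a number of 460 or higher (up to 560). The libraries between them, with numbers up to 420, were used only to place the differences. The members were chosen by the number alone, with no measured value.

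All mice were Diversity Outbred mice, an outbred stock in which each animal carries a different mosaic of the founder strains' genomes, and all were fed a high-fat, high-sugar (HFHS) diet with 45 percent fat. Both groups shared this stock, diet and tissue, which the study's methods give as the gonadal fat pad. No agent, engineered allele or time point distinguished the groups. Each mouse gave 1 library, so the spread within a group holds differences between animals as well as error of the assay. The labels give no age, sex, generation, shipment or batch. The study's own models used sex, generation and wave as covariates, and generation and wave cannot be told apart from mouse number here.

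The numbers fell into 5 runs of up to 100 mice, ending at 120, 220, 320, 420 and 560, with 95, 94, 100, 95 and 84 libraries. Within each run the lower numbers lacked counts of the Y-linked gene Ddx3y and the higher numbers had them, apart from 1 mouse. Ddx3y was counted in 47 of 95 libraries with low numbers (49.5%) and in 48 of 84 with high numbers (57.1%), a share that did not differ past the threshold (two-sided Fisher's exact test, p = 0.368). Whether Ddx3y was counted entered the comparison as a covariate, and the libraries without and with Ddx3y counts were also compared separately. Library totals had a median of 84.1 M expected counts (36.3 to 137.8 M, where M is 1000000) at low numbers and 80.3 M (51.9 to 134.5 M) at high numbers. The difference of the mean totals, of library number, and of the shares of counts in CT010467.1, mitochondrial genes and the 10 most abundant genes gave adjusted p-values from 0.591 to 0.852 (permutation tests, 5 measures). Bulk libraries cannot separate fewer cells of a type from less RNA per cell, and this holds for every gene group below.

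Adipose tissue stores fatty acids as triglyceride in adipocytes and releases them between meals. Insulin promotes storage through its receptor, glucose transport and lipid synthesis, while glucocorticoids, the circadian clock and the supply of sterols each act on sets of adipocyte genes through their own transcription factors. Around the adipocytes lie endothelium, mesothelium, nerve, fibroblast-like progenitors and immune cells, all of which add RNA to a bulk library.

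Expression was compared as log2 CPM, the log2 of counts scaled to a library total of 1000000 with a prior count of 2, and every log2 difference below is high minus low mouse numbers with its standard error. A gene was called when its limma p-value, adjusted by Benjamini-Hochberg over all 18380 genes tested, was under 0.05. By this rule 1244 genes were higher at high mouse numbers, 6.77% of those tested, and 1434 were lower, 7.8%. An unadjusted p under 0.05 was reached by 5126 genes. The median difference over all genes was 0.0061. The sections below leave out the immediate early genes and describe the other gene groups. In each of them the shares of called members stand against 6.77% and 7.8%. Within libraries without Ddx3y counts 5.47% of all genes were called higher and 5.45% lower, and within libraries with them 2.36% and 4.12%, a background against which the counts within these strata stand.

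**Figure D1:**
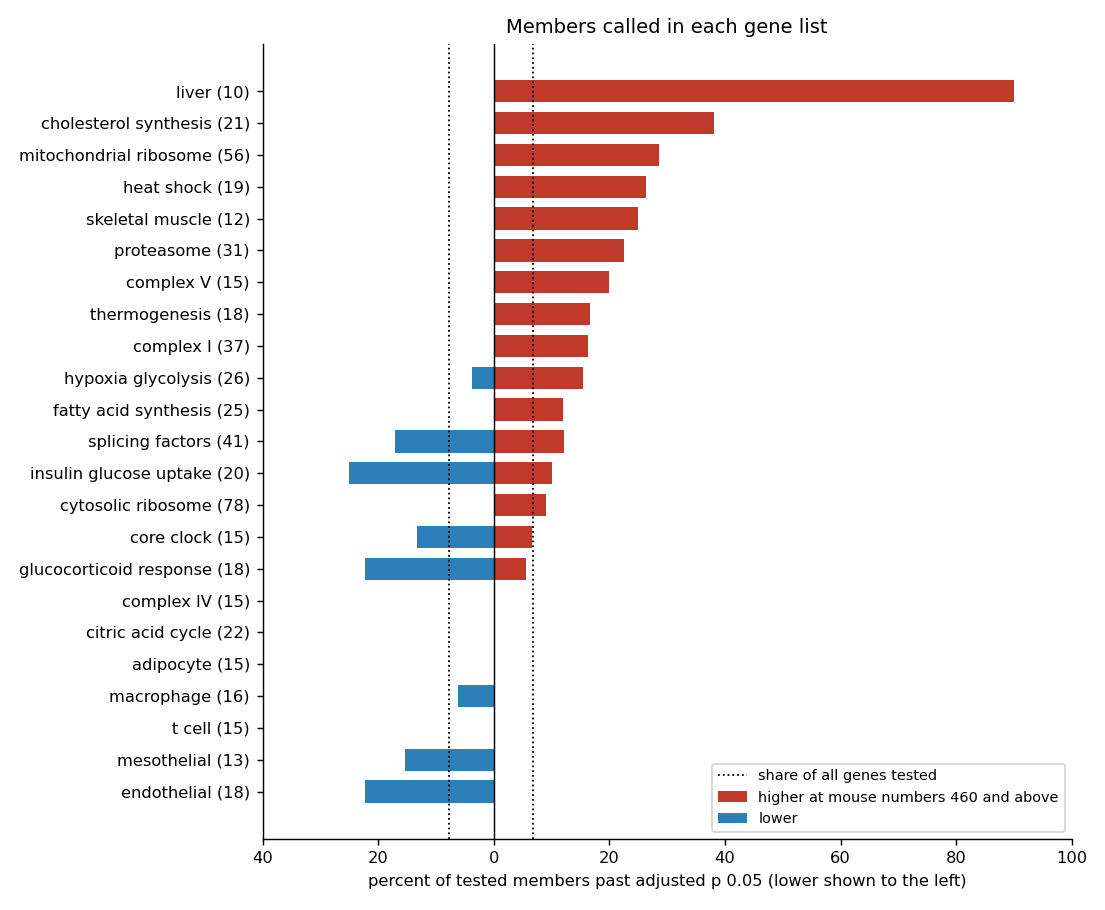
Share of the tested members of 23 gene lists called higher (to the right) or lower (to the left) at high mouse numbers, in percent of the list; the dotted lines mark the shares of all genes tested, 6.77% and 7.8%. The liver list (9 of 10) and the cholesterol list (8 of 21) reach farthest to the right.

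The largest increases were in genes that hepatocytes express. The 10 genes with the largest increase that met the naming rule were Mug1, Mup7, Fgb, Fga, Ttr, Gc, Bhmt, Serpina1c, Mat1a and Plg, among them plasma proteins, protease inhibitors and enzymes of methionine metabolism. Of the 10 liver markers, 9 were called higher and none lower, with a median log2 difference of 2.21. The exception was Cyp2e1, a cytochrome P450 that adipose tissue also expresses, with a median of 1593 CPM at low and 1139 CPM at high numbers and a difference of -0.34 ± 0.24 (adjusted p = 0.359).

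Alb, the gene of serum albumin (chr5:90460897-90476602, GRCm38), had a median of 15.3 CPM at low numbers (range 0.351 to 1279 CPM). At high numbers it had a median of 49.4 CPM (range 0.736 to 4978 CPM), a log2 difference of 1.60 ± 0.34 (adjusted p = 0.00022). The ranges overlapped from 0.736 to 1279 CPM, and 73.8% of the libraries with high numbers lay above the median of those with low numbers. The difference was seen in libraries without Ddx3y counts (medians 21.9 and 50.4 CPM) and with them (6.67 and 45.6 CPM), with log2 differences of 1.21 ± 0.44 (adjusted p = 0.058) and 1.94 ± 0.50 (adjusted p = 0.0079).

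Ttr, which encodes transthyretin, the plasma carrier of thyroid hormone and retinol-binding protein, had a median of 0.169 CPM at low and 3.06 CPM at high numbers. It was at 0 in 26 libraries with low and 4 with high numbers, where 3 counts correspond to 0.022 to 0.0741 CPM and 0.0233 to 0.0553 CPM. Its highest values were 70.4 and 171.03 CPM, and the log2 difference was 2.71 ± 0.48 (adjusted p = 8.45e-06). Fga and Fgb, subunits of fibrinogen, were at 0 in 24 and 30 libraries with low numbers and in 4 and 10 with high numbers. Their log2 differences were 2.75 ± 0.51 each (adjusted p = 2e-05 each). In both groups the level of Ttr thus ran from 0 to far above the group's median.

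The run of the lowest numbers stood below all later runs for these genes. The medians of Alb over the 5 runs were 15.3, 29.3, 21.4, 30.1 and 49.4 CPM, and those of Ttr were 0.169, 1.3, 0.782, 1.01 and 3.06 CPM. Against the same libraries with numbers up to 120, 8, 3 and 6 of the 10 liver markers were called higher in the runs ending at 220, 320 and 420. These comparisons share the run of the lowest numbers. Between the run ending at 420 and the highest run no liver marker was called. Over all genes the shares called were 0.985%, 1.15% and 1.52% in the first 3 of these comparisons (0.876%, 0.724% and 1.06% higher) and 6.86% between the last 2 runs.

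With the mean of the liver list as a further covariate, chosen after the values were seen, 1100 genes were called higher (5.98%) and 1374 lower. The liver markers make up that covariate, so the loss of their own calls there was fixed by construction and says nothing about them. Of the 2678 genes called without that covariate, 1936 were also called with it. The study also sampled liver and skeletal muscle from its mice, and the part of other tissue in these libraries was not tested. Of the 1733 genes that met the naming rule before ranking, 680 were higher and 1053 lower. Among the 680, 31 correlated with the liver list above r = 0.5 across the libraries between the groups, all 10 named above included. Ttr, Fga and Fgb are members of that list, so their correlation with it is partly fixed by construction.

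**Figure D2:**
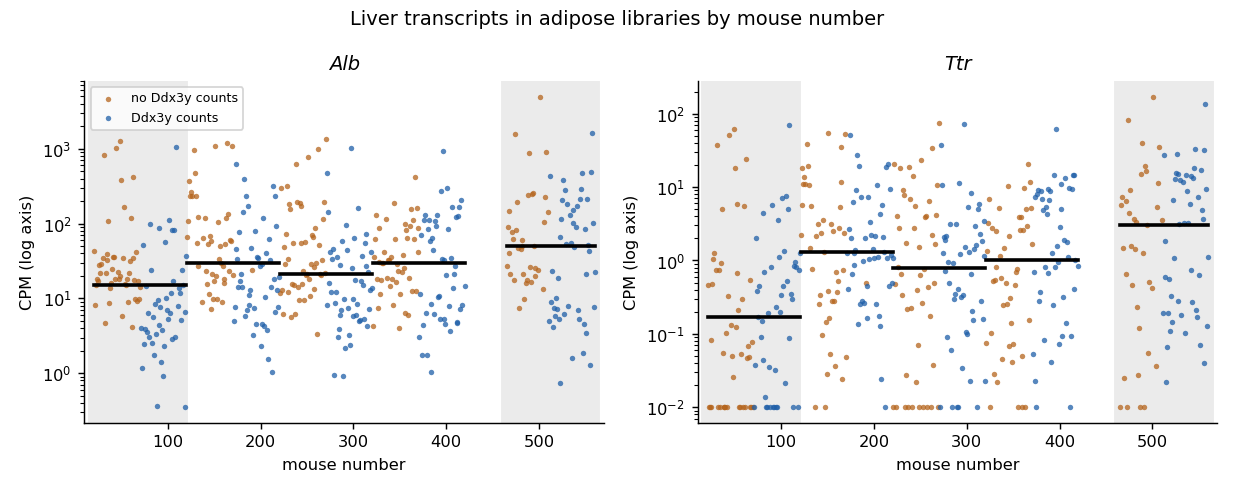
Alb and Ttr in each library (CPM, log scale) against mouse number, coloured by whether Ddx3y was counted; grey bands mark the low and high groups, black lines are run medians, and Ttr values of 0 are drawn at 0.01 CPM. The run medians of Ttr are 0.169 CPM in the lowest run and 3.06 CPM in the highest.

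Genes of cholesterol synthesis were higher at high mouse numbers where they were called. Sterol-regulated transcription factors of the SREBP family drive these genes when the membranes of the endoplasmic reticulum are short of sterol. Of 21 genes in the list, all of which were tested, 8 were called higher (38.1%) and none lower, and all 21 differences were above 0, with a median of 0.18. The tests on counts called fewer, 4 by edgeR (5.82% of all genes were higher) and 4 by DESeq2 (6.53%), none of them lower.

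Insig1 encodes the endoplasmic reticulum protein that retains the SREBP complex when sterols are plentiful (chr5:28071363-28078662). It had a median of 402.98 CPM at low numbers (range 105.8 to 1009 CPM) and a median of 541.3 CPM at high numbers (range 169.2 to 1374 CPM). The log2 difference was 0.40 ± 0.09 (adjusted p = 0.000429), and 76.2% of the libraries with high numbers lay above the low group's median. Its run medians were 402.98, 410.4, 451.3, 507.04 and 541.3 CPM, so that the middle runs lay between the ends. Within the lowest, middle and highest range of library numbers, 3 equal parts, its difference was 0.51, 0.47 and 0.20, with adjusted p-values of 0.0395, 0.121 and 0.698.

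Along the pathway itself, the called enzymes were Mvk, Pmvk and Mvd of the mevalonate steps, Fdps of isoprenoid synthesis, and Cyp51, Msmo1 and Ebp of the sterol steps. Mvd, which forms isopentenyl diphosphate, rose by the most, from a median of 8.36 to 11.5 CPM (0.36 ± 0.10, adjusted p = 0.00777). Mvk rose by 0.20 ± 0.05 (adjusted p = 0.00178) and Ebp by 0.14 ± 0.03 (adjusted p = 0.00233). The remaining 4 had differences from 0.18 to 0.24. Hmgcs1, a synthase of the mevalonate steps, had 0.22 ± 0.08 (adjusted p = 0.0601), and Srebf2, the factor that drives the pathway, had 0.08 ± 0.03 (adjusted p = 0.0984). With the liver list as a covariate 11 of the 21 genes were called higher and none lower.

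The calls were spread unevenly over the runs and the strata. None of the 21 was called in any middle run against the lowest run, and 2 were called between the run ending at 420 and the highest run. In libraries without Ddx3y counts 8 of 21 were called (against 5.47% of all genes), with a median difference of 0.24, and in libraries with them 1 of 21 (against 2.36%), with a median of 0.12. The interaction, the test of a difference between the strata, was called for 6 genes in all (0.0326%) and for no member of this list, the lowest adjusted p being 0.0882.

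**Figure D3:**
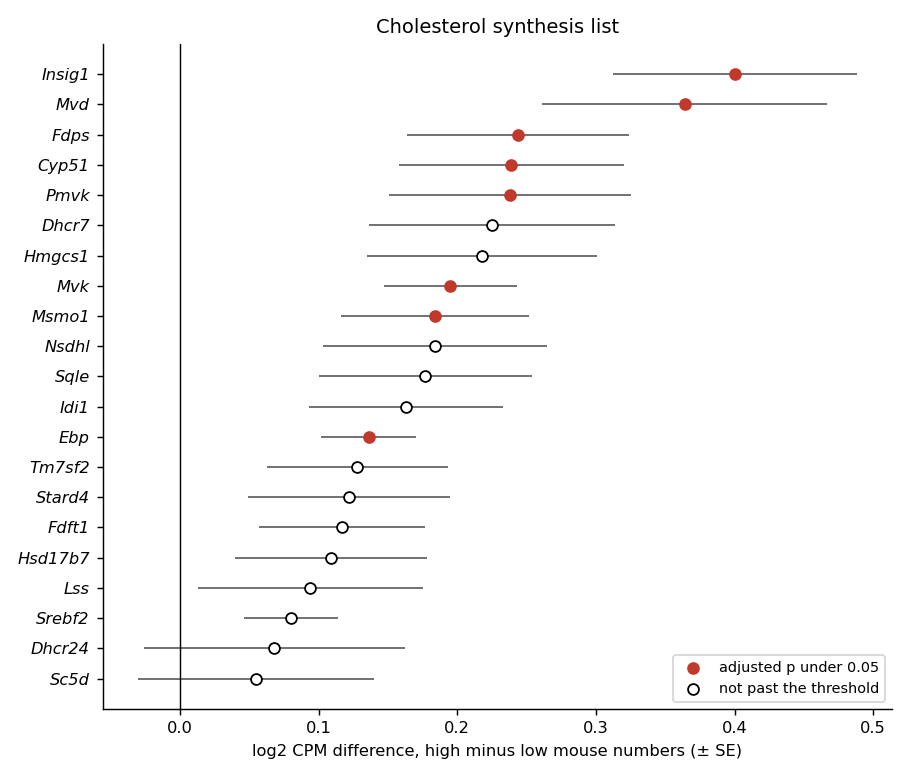
Log2 CPM difference, high minus low mouse numbers, of 21 genes of cholesterol synthesis, with bars of 1 standard error (95 and 84 libraries); filled points passed the threshold. All 21 points lie above 0, with Insig1 at 0.40 and Mvd at 0.36 farthest to the right.

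The related list of 25 fatty acid synthesis genes had 3 called higher (12%) and none lower. They were Srebf1, the SREBP factor of fatty acid genes (medians 232.3 and 267.6 CPM, 0.23 ± 0.06, adjusted p = 0.00283), Fads2, a desaturase (0.36 ± 0.13, adjusted p = 0.0368), and Aacs, which activates acetoacetate (0.27 ± 0.09, adjusted p = 0.026). Fasn, the fatty acid synthase itself, had medians of 7420 and 6126 CPM and a difference of 0.11 ± 0.13 (adjusted p = 0.641). Over the other settings, the strata among them, that difference ran from -0.319 to 0.6. Scd1, the stearoyl-CoA desaturase, had -0.04 ± 0.12 (adjusted p = 0.882). Without Ddx3y counts 6 of the 25 genes were called higher, against 5.47% of all genes, and all 25 differences were above 0 (median 0.49). With Ddx3y counts none was called, against 2.36%, and 12 differences were above 0 (median -0.08).

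The promoters of the cholesterol genes were read for the core of the sterol regulatory element, TCACNCCAC, on both strands. The RefSeq sequences (GRCm38.p6) run from 250 bases before to 50 after each start, and 1.24% of 32851 such promoters held the motif. Counted by gene, with a match in any promoter of the gene, the share was 1.44%. Of the 21 genes 16 had a promoter in the table, and 1, Hmgcs1, held it. None of the 7 called genes with a promoter did. The Hmgcs1 promoter, chr13:119690101-119690400 on the plus strand, is shown because it is the only match among these genes, with the motif in capitals:
Hmgcs1: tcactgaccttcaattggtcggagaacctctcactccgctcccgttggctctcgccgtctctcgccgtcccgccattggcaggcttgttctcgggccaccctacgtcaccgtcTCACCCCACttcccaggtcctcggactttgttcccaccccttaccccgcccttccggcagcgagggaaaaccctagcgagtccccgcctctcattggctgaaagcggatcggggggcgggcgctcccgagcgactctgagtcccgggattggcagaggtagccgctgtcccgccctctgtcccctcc

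Heat shock genes were higher where they were called, the inducible Hsp70 genes by the most. These genes encode chaperones and their partners, and heat shock factor switches the inducible ones on when proteins unfold. Of 19 genes 5 were called higher (26.3%) and none lower, with a median of 0.06 over the list. The called genes were Hspa1a and Hspa1b, the inducible Hsp70 chaperones, Dnajb1 and Bag3, their cochaperones, and Cryab, a small heat shock protein.

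Hspa1a (chr17:34969190-34972156) had a median of 14.0 CPM at low numbers (range 4.21 to 85.3 CPM). At high numbers it had a median of 29.1 CPM (range 7.21 to 300.1 CPM), a log2 difference of 0.94 ± 0.17 (adjusted p = 6.92e-06). Hspa1b (chr17:34956436-34959238) had medians of 27.4 and 51.2 CPM and a difference of 0.80 ± 0.15 (adjusted p = 4.38e-05). The 2 genes are near-identical copies, so how reads were split between them is uncertain. The ranges of Hspa1a in the 2 groups overlapped from 7.21 to 85.3 CPM.

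Dnajb1 had medians of 38.6 and 46.3 CPM (0.33 ± 0.07, adjusted p = 0.000141) and Bag3 had 58.7 and 66.7 CPM (0.20 ± 0.05, adjusted p = 0.00241). Cryab had 46.6 and 68.8 CPM (0.58 ± 0.18, adjusted p = 0.0169), was not called by edgeR (adjusted p = 0.0591), and overlaps Hspb2 in the annotation. Hspa8, the constitutive member of the same chaperone family, had medians of 1391 and 1420 CPM and a difference of 0.03 ± 0.05 (adjusted p = 0.771).

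The run medians of Hspa1a were 14.0, 22.2, 22.9, 30.9 and 29.1 CPM. The lowest run thus lay below the other 4, and the highest did not stand apart from the run before it. In libraries without Ddx3y counts the medians were 18.7 and 55.8 CPM, a difference of 1.41 ± 0.25 (adjusted p = 0.00018), and in libraries with them 11.9 and 19.3 CPM, a difference of 0.52 ± 0.21 (adjusted p = 0.112). Of the 19 genes 5 were called without Ddx3y counts, where 5.47% of all genes were called higher, and none with them, where 2.36% were. The interaction of Hspa1a had an unadjusted p of 0.00666 and an adjusted p of 0.117.

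The promoters of Hspa1a and Hspa1b carried a pair of inverted heat shock units, GAANNTTC, at the same distance before the start. They are shown to let the shared site and the near identity of the copies be seen, with the pair in capitals. Hspa1a lies at chr17:34972107-34972406 and Hspa1b at chr17:34959189-34959488, both on the minus strand.
Hspa1a: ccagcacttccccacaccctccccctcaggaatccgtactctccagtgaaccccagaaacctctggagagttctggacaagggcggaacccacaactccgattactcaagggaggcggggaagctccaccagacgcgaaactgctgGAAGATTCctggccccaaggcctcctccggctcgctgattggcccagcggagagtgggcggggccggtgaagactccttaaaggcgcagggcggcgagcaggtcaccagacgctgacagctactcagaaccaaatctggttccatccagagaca
Hspa1b: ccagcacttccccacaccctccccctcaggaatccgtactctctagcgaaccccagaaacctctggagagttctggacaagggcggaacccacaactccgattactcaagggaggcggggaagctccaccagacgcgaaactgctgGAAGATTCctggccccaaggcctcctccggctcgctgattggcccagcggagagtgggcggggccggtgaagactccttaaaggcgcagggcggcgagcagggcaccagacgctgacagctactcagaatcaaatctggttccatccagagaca
These sequences differ at 4 of 300 positions. The pair was in 7.86% of all promoters. Counted by gene, with a match in any promoter of the gene, it was in 9.04% of all genes. It was in 10 of the 14 heat shock genes with a promoter and in 3 of the 4 called ones (Bag3 was the third). The inverted pair in the other orientation, TTCNNGAA, was in 8.52% of all promoters (9.6% of genes), 4 of the 14 and none of the 4. The triple unit GAANNTTCNNGAA, which contains both pairs, was in 0.603% of all promoters (0.662% of genes) and in 4 of the 14, none of them called. A match gives letters only, not a site in use.

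Several glucocorticoid-responsive genes were lower at high mouse numbers. Of 18 genes 4 were called lower (22.2%) and 1 higher (5.56%, below the 6.77% of all genes). Zbtb16, a zinc finger repressor that glucocorticoid induces strongly (chr9:48654297-48836222), had a median of 180.4 CPM at low (range 45.3 to 521.7 CPM) and a median of 126.1 CPM at high numbers (range 39.5 to 340.5 CPM). Its difference was -0.48 ± 0.10 (adjusted p = 0.000106). Fkbp5, a cochaperone of the glucocorticoid receptor (chr17:28399094-28517527), had medians of 87.6 and 68.5 CPM (-0.43 ± 0.11, adjusted p = 0.00249).

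The lowest run stood above the other 4 for both genes. The run medians were 180.4, 137.8, 142.2, 129.8 and 126.1 CPM for Zbtb16 and 87.6, 73.5, 67.4, 73.8 and 68.5 CPM for Fkbp5. Sult1a1, a sulfotransferase, fell by 0.25 ± 0.07 on the log2 scale (adjusted p = 0.00781) and Klf9, a transcription factor, fell by 0.15 ± 0.05 (adjusted p = 0.034). Errfi1, an inhibitor of the epidermal growth factor receptor, rose from 68.1 to 98.1 CPM (0.52 ± 0.09, adjusted p = 3.53e-06), and 86.9% of the libraries with high numbers lay above the low median. Tsc22d3 had -0.16 (adjusted p = 0.229), Per1 had 0.15 (adjusted p = 0.143), and Nr3c1, the receptor, had -0.02.

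Several insulin signalling genes were called lower, while the glucose transporter was not called. Of 20 genes 5 were called lower (25%) and 2 higher (10%). The list as a whole did not lean to 1 side, with 10 of 20 differences above 0 and a median of -0.015. Without Ddx3y counts 1 was called lower and 2 higher (median 0.03), against 5.45% and 5.47% of all genes. With Ddx3y counts 4 were called lower and 1 higher (median -0.07), against 4.12% and 2.36%. Insr, the insulin receptor (chr8:3122061-3279617), had a median of 197.1 CPM at low (range 83.3 to 339.99 CPM) and a median of 161.8 CPM at high numbers (range 84.6 to 281.7 CPM). The difference was -0.23 ± 0.05 (adjusted p = 0.000796). The medians of the runs ending at 120, 220, 420 and 560 were 197.1, 187.3, 183.7 and 161.8 CPM, that of the run ending at 320 lay between the first 2 of these, and so the highest run lay below the other 4. In the highest run against the run ending at 420, a comparison that shares the highest run, 5 of the 20 genes were called lower (against 4.55% of all genes), and in the middle runs against the lowest none was.

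Pik3ca, the catalytic subunit of phosphoinositide 3-kinase, had medians of 86.9 and 82.2 CPM (-0.08 ± 0.02, adjusted p = 0.00039). Pdpk1, the kinase that activates AKT, fell by 0.12 on the log2 scale. Foxo1, the transcription factor that AKT keeps out of the nucleus, had 141.4 and 123.8 CPM (-0.15 ± 0.05, adjusted p = 0.0283). Lnpep, the aminopeptidase of the vesicles that hold the glucose transporter, had 44.2 and 35.6 CPM (-0.28 ± 0.06, adjusted p = 0.000517), and is taken up again below because its difference depended on the stratum. The called increases were Trarg1, a regulator of transporter trafficking (443.6 and 513.8 CPM, 0.20 ± 0.06, adjusted p = 0.0109), and Akt1 (0.06 ± 0.02, adjusted p = 0.0353). Slc2a4, the insulin-responsive glucose transporter, had 0.14 (adjusted p = 0.253).

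Lipolysis genes showed 1 called in each direction of 16. That is 6.25% each way, below the 6.77% and 7.8% of all genes, and the list median was 0.0006. The genes below are thus single genes and not a result for the list. G0s2, which inhibits adipose triglyceride lipase, rose from a median of 82.7 CPM (17.9 to 195.8) to 114.1 CPM (44.3 to 259.7). The difference was 0.59 ± 0.09 (adjusted p = 1.84e-07), and the run medians were 82.7, 96.1, 121.05, 103.4 and 114.1 CPM. G0s2 overlaps Lamb3 in the annotation. Pde3b, the phosphodiesterase through which insulin restrains lipolysis, had 432.04 and 345.6 CPM (-0.23 ± 0.07, adjusted p = 0.0158). Pnpla2, the lipase itself, Lipe, the hormone-sensitive lipase, and Plin1, the droplet coat protein, had differences of -0.09, 0.01 and 0.04, none called.

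Core clock genes were mostly not called. Of 15, 2 were called lower (13.3%) and 1 higher (6.67%). Rora, a nuclear receptor that activates Arntl (chr9:68653786-69388246), had a median of 71.3 CPM at low numbers (range 47.5 to 119.8 CPM). At high numbers it had a median of 57.015 CPM (range 40.1 to 131.2 CPM), a difference of -0.30 ± 0.04 (adjusted p = 8.07e-08). Of the libraries with high numbers 14.3% lay above the low median. The run medians were 71.3, 66.3, 62.3, 66.2 and 57.015 CPM. Within the 3 ranges of library number the difference was -0.26, -0.21 and -0.44, with adjusted p-values of 0.0557, 0.244 and 0.00017.

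Clock itself fell from 122.9 to 110.9 CPM (-0.12 ± 0.03, adjusted p = 0.00328), and Bhlhe40, a repressor of clock genes, rose from 14.8 to 19.6 CPM (0.44 ± 0.09, adjusted p = 0.000213). Arntl, the partner of Clock, had 0.03 ± 0.07 (adjusted p = 0.822). Per2 and Nr1d1, which cycle strongly, had 0.03 ± 0.10 (adjusted p = 0.893) and 0.07 ± 0.15 (adjusted p = 0.816).

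**Figure D4:**
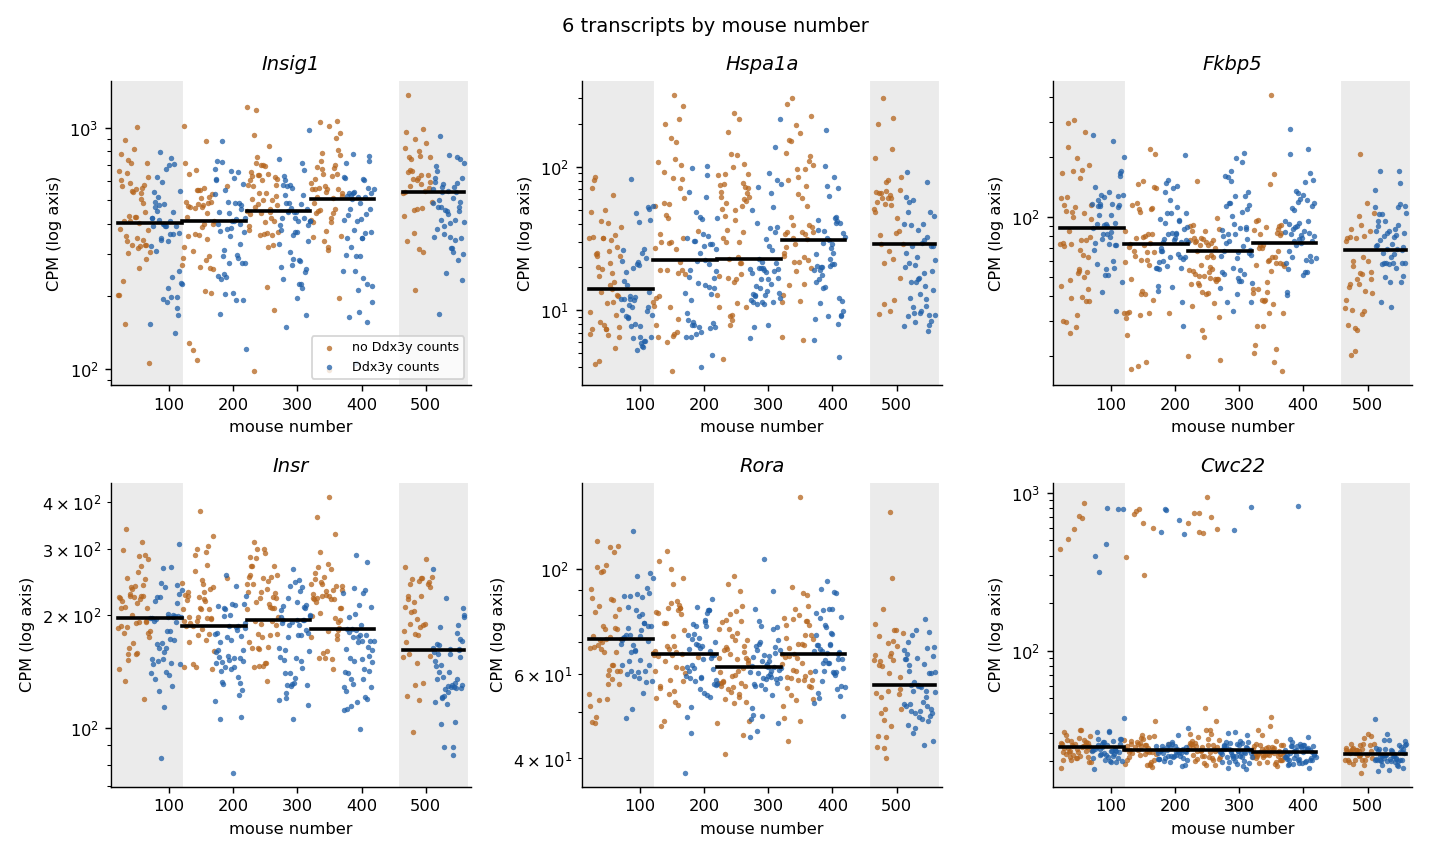
Insig1, Hspa1a, Fkbp5, Insr, Rora and Cwc22 in each library (CPM, log scale) against mouse number, coloured by whether Ddx3y was counted, with grey bands for the low and high groups and black lines for run medians. The run medians of Insig1 go from 402.98 to 541.3 CPM and those of Rora from 71.3 to 57.015 CPM, and Cwc22 has no library above 36.8 CPM in the highest run.

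Endothelial genes were lower where they were called. Of 18 markers 4 were called lower (22.2%) and none higher. Ptprb, the vascular endothelial phosphatase (chr10:116275523-116389535), had a median of 311.97 CPM (161.8 to 539.7) at low and 269.4 CPM (154.01 to 408.5) at high numbers, a difference of -0.24 ± 0.04 (adjusted p = 2.1e-05). Its run medians were 311.97, 299.4, 304.6, 304.7 and 269.4 CPM. Vwf (-0.19 ± 0.06, adjusted p = 0.0149), Kdr (-0.14 ± 0.05, adjusted p = 0.0498) and Eng (-0.11 ± 0.03, adjusted p = 0.0147) were the others, and Kdr was not called by edgeR (adjusted p = 0.0524). Pecam1 and Cdh5, which define endothelium, were not called, and the summed level of the list ranged from 1260 to 3048 CPM at low and from 1383 to 2923 CPM at high numbers, with medians of 2265 and 2125 CPM.

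Most other cell type lists held few called genes. None of the 15 adipocyte, 15 T cell, 10 NK cell and 15 B cell markers tested was called in either direction. The adipocyte list held 16 symbols, of which 15 were found. These counts pool the strata, where medians could differ in sign. The NK cell median was -0.42 without and 0.13 with Ddx3y counts, with 0 and 9 of 10 differences above 0. Adipocyte markers had medians of 0.02 and -0.13, with 11 and 1 of 15 above 0. B cell markers had -0.50 and 0.03, and T cell markers -0.34 and -0.10. The summed adipocyte list had a median of 39760 CPM (16700 to 56470) at low and 38000 CPM (18490 to 52140) at high numbers, so both groups were adipose tissue by its markers. Of 16 macrophage markers 1 was called lower (6.25%, below the 7.8% of all genes). It was Mertk, a receptor for dying cells (45.993 and 37.4 CPM, -0.38 ± 0.07, adjusted p = 6.47e-05). The macrophage median was -0.17 without and 0.10 with Ddx3y counts, with 1 and 14 of 16 differences above 0. For 10 MHC class II antigen presentation genes it was -0.30 and 0.28, with 0 and 9 above 0. By limma no interaction was called for a member of these lists, the lowest adjusted p being 0.0715. Of 13 mesothelial markers 2 were called lower (15.4%), Bnc1 at -0.34 ± 0.09 (adjusted p = 0.00587) and Muc16 at -0.28 ± 0.10 (adjusted p = 0.0375). Upk3b and Msln were not called.

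Among 12 skeletal muscle markers tested, 3 were called higher (25%), with a median difference of 0.49. They were Ckm, the muscle creatine kinase (0.143 and 0.255 CPM, 1.47 ± 0.45, adjusted p = 0.0139), Atp2a1, a calcium pump, and Tnnt3, a troponin. All 3 stayed under 1 CPM in the median of both groups, while Atp2a1 reached 63.4 CPM at low and 245.9 CPM at high numbers in single libraries. By edgeR 9 of the 12 were called higher. The summed list had medians of 36.5 and 39.3 CPM and maxima of 569.0 and 1561 CPM, and its part in other results was not tested.

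Nuclear genes of the mitochondrion were higher, by small amounts, where they were called. Of 37 complex I genes 6 were called higher (16.2%) and of 56 mitochondrial ribosomal protein genes 16 (28.6%). Of 15 complex V genes 3 (20%) and of 13 complex II and III genes 2 (15.4%) were called higher. None of these was called lower. With the strata pooled, no gene of complex IV (15), the citric acid cycle (22), fatty acid oxidation (21) or branched-chain catabolism (24) was called. Nor was any of the 13 genes of the mitochondrial genome. The median differences were 0.13 for complex I and 0.08 for the mitochondrial ribosome.

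The medians of these lists had opposite signs in the strata. In libraries without Ddx3y counts complex I had a median of 0.32 and 24 of 37 called higher, and the mitochondrial ribosome a median of 0.19 and 35 of 56 called, against 5.47% of all genes in that stratum. In libraries with Ddx3y counts the medians were -0.05 and -0.02, and none was called, against 2.36% higher and 4.12% lower of all genes. Complex IV, uncalled with the strata pooled, had 8 of 15 called higher without Ddx3y counts (median 0.30). Complex V had 10 of 15 and complex II and III 9 of 13 called higher there. With Ddx3y counts complex IV had 1 called lower (median -0.07), complex V 1 called higher and complex II and III none. Fatty acid synthesis had medians of 0.49 and -0.08 and the mitochondrially encoded genes 0.31 and -0.27, and 9 of these 13 were called lower where Ddx3y was counted. Ndufb7, a subunit of complex I, had 0.32 (adjusted p = 0.00819) without and -0.02 (adjusted p = 0.821) with Ddx3y counts. The interaction had an unadjusted p under 0.05 for 36 of the 37 complex I genes and 52 of the 56 ribosomal genes, but no adjusted p under 0.05, the lowest being 0.0544. By edgeR 13 and 16 of them passed, against 2.09% of all genes. Members of a complex vary together in the same libraries, so they are not independent readings of a condition.

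**Figure D5:**
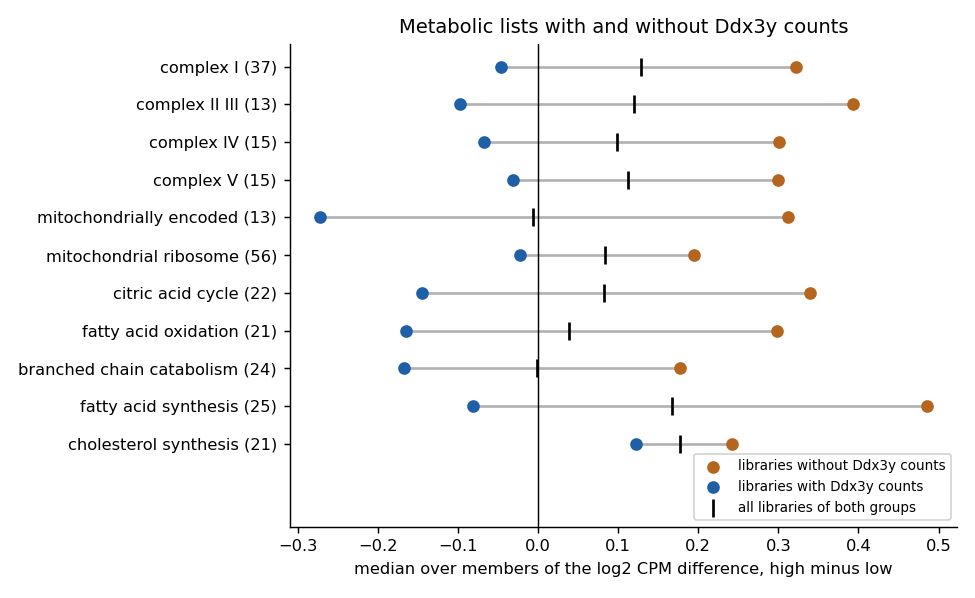
Median log2 CPM difference, high minus low mouse numbers, over the members of 11 lists, in libraries without (brown points) and with (blue points) Ddx3y counts and in all libraries of both groups (black ticks). The 10 lists other than cholesterol synthesis are above 0 without Ddx3y counts and below 0 with them (complex I, 0.32 and -0.05), and cholesterol synthesis is above 0 in both (0.24 and 0.12).

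The calls were also read by transcript length. The median transcript length was 1053 bases for genes called higher, 2143 for genes called lower and 1480 for all genes. Over 5 equal classes of transcript length, from the shortest to the longest, the share called higher went from 9.46% to 4.03%, and the share called lower from 4.74% to 13.7%. For each library, the deviation of log2 CPM from the gene's mean over all libraries was fitted with a slope on log10 length. This slope, which is relative to the series average, had medians of -0.0051 at low and -0.045 at high numbers, with ranges that overlapped. Its means differed by -0.0401 (two-sided permutation test, p = 0.0258, adjusted p = 0.155 over 6 library measures). With that slope as a covariate, chosen after the values were seen, 1 complex I gene and 2 mitochondrial ribosomal genes were called higher, while 7 cholesterol, 9 liver and 5 heat shock genes were, against 8.1% of all genes in that fit. Of 31 proteasome genes 7 were called higher (22.6%) without that covariate and 2 with it, and of 78 cytosolic ribosomal genes 7 (8.97%) and 2. The part of transcript length in the calls was not tested further.

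Splicing factors were called in both directions, 5 higher (12.2%) and 7 lower (17.1%) of 41. Snrpd1, Snrpd2, Snrpd3 and Snrpg, small proteins of the spliceosome core, were among the higher ones, and Srsf11, Hnrnpu, Luc7l2 and Rbm25 among the lower ones. Among 19 p53 targets 3 were higher (15.8%) and 2 lower (10.5%). Phlda3, an inhibitor of AKT, rose from 97.8 to 127.6 CPM (0.38 ± 0.08, adjusted p = 0.00013), and Trp53inp1, a p53 cofactor, fell from 52.1 to 42.4 CPM (-0.31 ± 0.07, adjusted p = 0.00106). Cdkn1a and Mdm2, the best known targets, had 0.12 (adjusted p = 0.314) and 0.07 (adjusted p = 0.0651).

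The 10 genes with the lowest differences by the naming rule were Cacna1e, Cwc22, Zfp968, Fam13a, Thbs2, Fam214a, Zbtb16, Zfp966, Peg3 and Slc2a3. Cacna1e, a calcium channel subunit, had medians of 8.35 and 6.98 CPM and a difference of -0.75 ± 0.22 (adjusted p = 0.0091). That difference was -1.43 without and -0.17 with Ddx3y counts. Fam13a, a gene linked to fat distribution, had 364.7 and 220.4 CPM (-0.57 ± 0.19, adjusted p = 0.0289), with -0.16 without and -0.92 with Ddx3y counts. Thbs2, a matrix protein that inhibits vessel growth, had 155.4 and 102.4 CPM (-0.54 ± 0.12, adjusted p = 0.000579), and its run medians were 155.4, 139.4, 131.7, 124.1 and 102.4 CPM.

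Cwc22 encodes a splicing factor and lies on chr2 (chr2:77881159-77946375, minus strand) in a segment whose copy number is known to vary between founder strains of the stock. Its medians were close, 24.3 CPM at low and 22.2 CPM at high numbers, and the difference of -0.68 ± 0.17 (adjusted p = 0.00229) came with a tail of high libraries. Above a level of 100 CPM, chosen after the values were seen, there were 12 of 95, 12 of 94, 10 of 100, 1 of 95 and 0 of 84 libraries in the 5 runs. Those libraries held from 303.8 to 948.8 CPM, and every other library was at or under 43.4 CPM. By edgeR, which weighs the mean count, the difference was -2.14.

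Zfp966 and Zfp968 are zinc finger genes of 1 cluster on chr2, and their near-identical neighbours moved the same way. Zfp965, Zfp970, Zfp971, Zfp972 and Zfp973, chosen after their values were seen, had differences from -0.43 to -0.32. Reads of such copies can be divided between them by the counting, so the 7 genes are uncertain as separate results. Zfp966 had medians of 39.967 and 29.2 CPM (-0.48 ± 0.10, adjusted p = 7.23e-05), and its run medians were 39.967, 37.954, 38.5, 39.9 and 29.2 CPM, with only the highest run apart.

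Once the genes that followed the liver list were set aside, a step chosen after the values were seen, the largest increases included Hspa1a, Hspa1b, Ngfr, Pcp4l1 and G0s2. Ngfr, a neurotrophin receptor, had medians of 2.62 and 3.28 CPM (0.81 ± 0.18, adjusted p = 0.000449).

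The libraries between the groups, which the comparison did not use, were fitted with a slope on mouse number. Of all genes 16 were called (0.0871%), of which 10 were immediate early genes. The other 6 were Glb1l, Etv6, Foxn3, Atxn1, Irf2bp2 and A530032D15Rik, and among them Irf2bp2 (0.10 ± 0.02 per 100 numbers, adjusted p = 0.0011) and Atxn1 (0.07 ± 0.02, adjusted p = 0.018) were called in the same direction between the ends. Foxn3 had a slope of 0.06 ± 0.01 (adjusted p = 0.00189) and a difference of -0.15 between the ends. None of these 6 belongs to a gene group described above.

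How far a result rests on the range of library numbers was looked at within the 3 ranges of that number. In the lowest, middle and highest range the difference of Hspa1a was 0.65, 1.03 and 1.16, that of Fkbp5 was -0.53, -0.36 and -0.34, that of Insr was -0.25, -0.20 and -0.26, and that of Ptprb was -0.24, -0.26 and -0.22. Ttr had 1.83, 2.96 and 3.46. Each kept its sign, and of these 15 values those of Hspa1a (adjusted p = 0.0174) and Ttr (adjusted p = 0.0127) in the highest range passed the threshold.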

How the data were processed

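RNA of adipose tissue was sequenced from 468 mice, 1 library each. Per the labels and the study's methods, the authors added a spike-in mix, built libraries from polyadenylated RNA, aligned reads to a transcriptome joining the founder strains (GRCm38, the build named in the submitters' notes), and estimated expected counts per gene with EMASE run by GBRS. Program versions were not given in the sources used here, nor was strand, so reads of overlapping genes cannot be told apart. The deposited expected counts were used without rounding: 66.8% were whole within 1e-06, and edgeR and DESeq2 were run on rounded values. The authors also deposited log2-scale values from the variance stabilizing transformation of DESeq2, used here as an alternative. The methods describe a removal of batch effects without saying whether it reached these files.

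A gene was tested where 50% or more of the libraries held 10 counts or more, which left 18380 of 23180. Log2 CPM was computed with TMM-scaled totals and a prior count of 2, and limma 3.58.1 (R 4.3.3) was fitted to libraries with mouse numbers up to 120 and from 460, with Ddx3y counted or not as covariate and Benjamini-Hochberg adjustment at 0.05. edgeR 4.0.16 (quasi-likelihood) and DESeq2 1.42.0 were alternatives, beside other scalings, filters, prior counts, covariates, strata and bounds of mouse number, 20 planned in all. The liver and length covariates and the comparisons of runs were added after the data had been seen. The length used is the median transcript length of a gene in the annotation. Permutation tests of library measures used scipy 1.17.1 with 100000 resamples, two-sided. The limma fit was tried on simulated counts, drawn independently for each gene and library and without differences between runs. That trial therefore does not cover differences between runs or genes that vary together. Library totals, 35.3 to 137.8 M (M is 1000000), set the counting error. With 1 library per mouse, the p-values weigh a difference against the spread between mice within the groups. Each group is 1 run of mouse numbers, so variation between runs does not enter that spread.

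The comparison and the gene lists were chosen with earlier results of these data known. Named genes are the 10 with the largest and the 10 with the lowest difference that limma and edgeR both called in the same direction, with the same sign in both Ddx3y strata and a mean of at least 5 CPM, leaving out immediate early genes, chromosome Y, Xist, Tsix and predicted genes. From each described list the rule adds the most abundant member and up to 4 called members in each direction. A gene outside this rule that is named for its role or its place in a family was chosen after its values were seen. Motifs were searched in RefSeq promoters of the table's build, GRCm38.p6. Some genes are not reported here. Genotypes, traits and other tissues were not analysed here.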

Additional observations from a re-analysis of the deposited data

Results flagged for a closer look

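For 6 genes the difference between high and low mouse numbers itself differed between libraries with and without Ddx3y counts (interaction term in limma, adjusted over 18380 genes). The 6 make up 0.0326% of the genes tested, and 3382 genes had an unadjusted p under 0.05 for this term.

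Lnpep, the aminopeptidase of glucose transporter vesicles, had an interaction of -0.575 ± 0.12 (adjusted p = 0.0222), with a difference of 0.025 without Ddx3y counts and -0.551 with them. Smpd5, a sphingomyelinase, had 0.764 ± 0.16 (adjusted p = 0.0222), from -0.526 without and 0.239 with Ddx3y counts. These were the only ones of the 6 with a stratum difference above 0.5 in size.

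Zfp931, a zinc finger gene, had -0.451 ± 0.097 (adjusted p = 0.0286), with 0.142 and -0.309 in the strata without and with Ddx3y counts. Pop5, a protein subunit of the RNase that processes transfer RNA, had -0.349 ± 0.076 (adjusted p = 0.0314), with 0.323 and -0.026. Tyw5, a transfer RNA modifying enzyme, had -0.256 ± 0.057 (adjusted p = 0.0377), with 0.158 and -0.098. Asxl1, a chromatin regulator, had 0.192 ± 0.04 (adjusted p = 0.0222), with -0.241 and -0.049. Only Asxl1 kept the same sign in both strata.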

How the results depend on the processing

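No paired analysis was possible because each mouse number belongs to 1 library and the groups share none. Shares are given as the percent of the 18380 genes tested that were called in either direction, with the higher and lower calls after it. Against 14.6% (6.77% and 7.8%), libraries with Ddx3y counts alone gave 6.48% (2.36% and 4.12%). The lowest, middle and highest range of library numbers gave 0.68% (0.174% and 0.506%), 0.642% (0.169% and 0.473%) and 1.27% (0.577% and 0.691%), and mouse numbers up to 90 against 490 and above gave 5.46% (2.4% and 3.06%). These fits hold fewer libraries by construction. Against the lowest run, the runs ending at 220, 320 and 420 gave 0.985% (0.876% and 0.109%), 1.15% (0.724% and 0.424%) and 1.52% (1.06% and 0.462%), and the highest run against the run ending at 420 gave 6.86% (2.31% and 4.55%). Other settings stayed within 1.5 times the count, among them edgeR (5.82% and 8.97%) and DESeq2 (6.53% and 8.79%). The slope in the middle libraries was called for 0.0871% of genes by limma, 3.1% by edgeR (0.93% and 2.17%) and 14.4% without the Ddx3y covariate (8.03% and 6.39%). The interaction was called for 0.0326% by limma and 2.09% by edgeR (0.909% and 1.19%). Library totals differed by -3.812 M counts in their medians (permutation p = 0.0375) and by -2.472 M in their means (p = 0.236). The cause was not tested for any of these.

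Among named genes and list members, 4888 values at other settings kept their side of the threshold and, for called genes, their direction. Another 1023 kept only the direction, 47 passed the threshold newly and 13 of called genes changed sign. Sign changes of genes that stayed uncalled were not counted, such as those of Fasn (-0.319 to 0.6) and Ucp1 (-0.503 to 1.111). With the liver list as covariate, which contains the first 2, Alb was at -0.047, Apob at -0.26 and Cyp2f2 at -0.045. Without Ddx3y counts Lnpep was at 0.025. With Ddx3y counts Atp5k was at -0.011, Mrpl12 at -0.016, Mrpl34 at -0.01, Ndufb7 at -0.018, Pkm at -0.005, Pop5 at -0.026, Slc2a1 at 0.034, Uqcr10 at -0.028 and Uqcr11 at -0.007. The cause was not tested. Mouse number cannot be told apart from generation, wave, date or handling, none of which the labels give. Genes near 0 CPM, such as Ttr and Ckm, rest on few counts in many libraries.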

Other observations

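Of 18 genes of brown and beige fat tested, 3 were called higher (16.7%) and none lower. The median difference of 0.24 (0.096 by edgeR) joined opposite signs in the strata. Without Ddx3y counts the median was 0.68, with 18 of 18 differences above 0. There 1 of 18 was called higher, near the 5.47% of all genes. With Ddx3y counts the median was -0.13, with 6 of 18 above 0 and 1 called higher, against 2.36% of all genes. The interaction was called for none of them, the lowest adjusted p being 0.0752. Prdm16, a factor of beige adipocyte identity, had medians of 8.07 and 9.59 CPM (0.30 ± 0.09, adjusted p = 0.00769). Acot11, an acyl-CoA thioesterase, had 8.82 and 11.5 CPM (0.75 ± 0.24, adjusted p = 0.0212) and was not called by edgeR (adjusted p = 0.233). Slc27a2, a fatty acid transporter that liver also expresses, had 2.26 and 5.10 CPM (1.37 ± 0.35, adjusted p = 0.00276). Ucp1, the uncoupling protein itself, ranged from 0.185 to 2062 CPM at low and from 0.131 to 2905 CPM at high numbers, with medians of 14.7 and 8.66 CPM and a difference of 0.25 ± 0.37 (adjusted p = 0.705).

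Of 7 red cell genes tested 1 was called (14.3%), Hbb-bs, an adult beta globin, which was lower. It had medians of 424.1 and 336.9 CPM, a difference of -0.34 ± 0.11 (adjusted p = 0.0219), and was not called by edgeR (adjusted p = 0.0547). Its difference was -0.05 without and -0.59 with Ddx3y counts. The summed red cell list had medians of 1026 and 805.3 CPM, with ranges of 315.3 to 6071 and 126.1 to 4446 CPM.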
